A study of Bos taurus with 6 samples.

Results

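The mitochondrial ribosomal proteins are the nuclear-encoded protein subunits of the ribosome inside mitochondria, and they carry the gene symbols MRPS for the small subunit and MRPL for the large one. All rows of the expression table whose platform symbol had that form and stood alone were taken, with the row of the highest mean over the 6 samples for each gene, which gave 75 genes of 18010, 27 with an MRPS and 48 with an MRPL symbol. Within the family, members were chosen by their symbol and by no measured value other than this mean level. A choice between rows arose for 2 of them. The family itself and the gene lists below were chosen with earlier results of these data known. Their shares of called genes are therefore not independent of those results. The row kept for MRPL23 averaged 5.87 and the other 5.35, and the row kept for MRPL33 averaged 7.80 and the other 7.67 (log2). A further 2 rows that joined an MRPS symbol to a second symbol were left out.

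The mitochondrial ribosome translates the few proteins encoded by mitochondrial DNA, all of them core subunits of the respiratory chain and the ATP synthase. Its proteins are made in the cytosol, imported and assembled on ribosomal RNA copied from mitochondrial DNA. Some descend from bacterial ribosomal proteins, while others have no bacterial counterpart and were added in mitochondria. The small subunit binds the messenger and decodes it, and the large subunit joins the amino acids and feeds the new chain to the inner membrane.

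The samples were 3 cultures of stromal fibroblasts from bovine ovarian tumor and 3 from normal bovine ovary, the connective tissue cells around the follicles. Both groups grew in DMEM/F12 medium with 10% FKS and received no specific treatment, and the labels name no tumor type, animal, age or genotype. RNA was read on microarrays as log2 expression values, so the number of samples limited the precision. Nothing in the labels says that the cultures came from different animals, so p-values reflect how far these 6 samples scatter, and that scatter may be technical. In such cultures a smaller share of cells that make a transcript and less of it per cell cannot be told apart. The comparison asked which transcripts differ between stromal cells of tumor and of normal ovary.

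Sample medians over all rows lay between 4.45 and 4.55, and the median fold change of all genes was 0.02. Fold changes are tumor minus normal on the log2 scale, and a gene was called where limma gave an adjusted p under 0.05 (Benjamini-Hochberg over all 18010 genes). The level under which 95% of the group means of 708 olfactory receptor rows lay, 3.55, served as a guide to background, since fibroblasts are not known to use those genes. All 11 fibroblast markers examined, COL1A1, DCN and VIM among them, lay above it in both groups, and 3 of them, COL3A1, PDGFRA and S100A4, rose. Of the markers of other cells, 5 of 7 for epithelium, 3 of 7 for leukocytes, 3 of 6 for endothelium, 1 of 5 for granulosa cells and 4 of 5 for smooth muscle and pericytes also lay above it in both groups. Among the markers that did not were EPCAM of epithelium, PTPRC of leukocytes, KDR of endothelium and FSHR of granulosa cells, under it in every sample. Single markers under that level do not show that such cells were absent. The 7 epithelial markers averaged 3.65, 3.67 and 3.59 in tumor and 4.60, 4.66 and 4.12 in normal samples, and 3 of them, the keratins KRT18, KRT19 and KRT8, fell. Between the groups, the epithelial mean was lower in tumor samples (3.64 against 4.46). So was the mean of the mitochondrial ribosomal proteins (6.52 against 6.91). Among the normal cultures the epithelial mean was lowest in normal 3, where that of the mitochondrial ribosomal proteins was highest. Of the other markers, CD68 of 7 for leukocytes rose, FOXL2 of 5 for granulosa cells fell, and of 5 for smooth muscle and pericytes DES and CSPG4 fell and MYH11 rose. Limma called 0 of 6 for endothelium, and 0 of those 6 had an unadjusted p under 0.05. In fits without 1 sample the call was lost in 5 for KRT8 (adjusted p up to 0.135), in 4 for MYH11 (up to 0.0866), without tumor replicate 1 or 2 for COL3A1 (0.0726 and 0.0815) and PDGFRA (0.0708 and 0.0713), and without normal replicate 2 for DES (0.0549). The part of such cells in the results below was not tested.

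Of the 75 genes of the mitochondrial ribosome 23 (30.7%) fell, against 9.44% of all genes, and 0 rose in limma, against 8.56% of all genes. At an unadjusted p under 0.05, 42 were lower and 2 higher, together 58.7%, against 30.9% of all genes in either direction. The median fold change was -0.36, so the median gene stood at 77.9% of its normal level, and 70 of 75 had a fold change below 0. In 44 genes (58.7%) each tumor sample lay under each normal sample, which 18.1% of all genes did, and 3 genes had the opposite order, against 17.6% of all genes. Called members changed by -0.49 to -1.02, and 1 gene passed 2-fold. Split by mean level, 11 of the 25 dimmest members fell (median -0.49), 6 of the middle 25 (-0.35) and 6 of the 25 brightest (-0.33). Of all 18010 genes, 5217 lay under 3.55 in both groups, against 1 of the 75 members. The shares of all genes given here and below include these dim genes. In a fit of only the genes whose mean reached that level, 27 of 74 members fell and 1 rose. In that fit 3446 of 12510 genes were called in either direction.

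The mean of the 75 genes was 6.44, 6.52 and 6.61 in tumor samples and 6.74, 6.93 and 7.06 in normal samples, or 6.52 ± 0.09 and 6.91 ± 0.16 (SD, n = 3 each). The groups did not overlap, and tumor 3 came closest to normal 1. Of the 23 calls, 7 held whichever sample was left out and 16 were lost in at least 1 such fit. With normal replicate 2 left out 7 members (9.33%) fell, against 4.94% of all genes, and with normal replicate 3 left out 11 (14.7%), against 7.01%. Fits that omitted tumor replicate 1 or 2 left 10 each (13.3%), against 5.52% and 5.43% of all genes. Leaving out tumor replicate 3 gave 18 (24%), against 7.13%, and leaving out normal replicate 1 gave 32 (42.7%), against 9.86%.

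**Figure D1:**
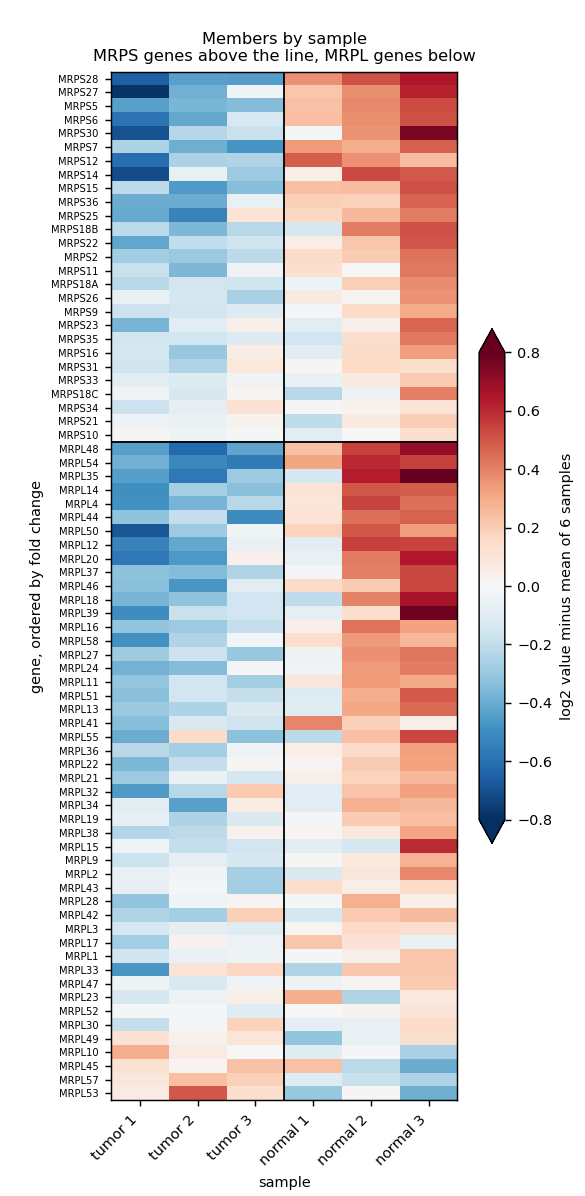
Log2 value of each of the 75 genes in each sample minus its mean over the 6 samples, with MRPS genes above the line and MRPL genes below, ordered by fold change. Blue is under and red over the gene's mean. Most genes are blue in the 3 tumor samples and red in normal 2 and normal 3, with normal 1 paler, and the lowest few rows run the other way.

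Among the 27 genes with an MRPS symbol, 11 (40.7%) fell and 0 rose in limma, where 9.44% of all genes fell and 8.56% rose. At an unadjusted p under 0.05, 17 were lower and 0 higher, against 30.9% of all genes in either direction. All 27 had a fold change below 0, with a median of -0.52. The largest fall was that of MRPS28, the counterpart of the messenger-binding bacterial protein S1. It read 4.65, 4.87 and 4.86 in tumor cells, against 5.67, 5.81 and 5.95 in normal cells. The groups were 0.80 apart, and the fold change was -1.02 ± 0.13 (SE, adjusted p = 0.00195, limma), which left 49.4% of the normal level.

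Several proteins of the decoding subunit, conserved from bacteria, fell with it. MRPS5, whose bacterial relative lies where the messenger enters, read 7.16, 7.23 and 7.25 in tumor cells, against 7.83, 7.98 and 8.12 in normal cells. All 3 tumor samples sat within 0.09 of one another, and the fold change was -0.76 ± 0.12 (adjusted p = 0.00484, limma). MRPS7, of the head of the subunit, read 7.09, 6.95 and 6.87 in tumor cells, against 7.68, 7.63 and 7.82 in normal cells. Its fold change was -0.74 ± 0.12 (adjusted p = 0.0053, limma), with 0.54 between the groups. MRPS12, of the decoding centre, read 6.13, 6.48 and 6.49 in tumor cells, against 7.22, 7.10 and 6.98 in normal cells. Here normal 1 was the highest sample, unlike in most of the family, and the fold change was -0.73 ± 0.14 (adjusted p = 0.0108, limma). MRPS15, which binds ribosomal RNA, read 6.87, 6.63 and 6.74 in tumor cells, against 7.32, 7.33 and 7.60 in normal cells. The groups were 0.45 apart, with a fold change of -0.67 ± 0.13 (adjusted p = 0.0113, limma). These 4 calls and that of MRPS28 held without any 1 sample.

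MRPS27, an RNA-binding protein with pentatricopeptide repeats and no bacterial counterpart, read 5.80, 6.20 and 6.55 in tumor cells, against 6.81, 6.96 and 7.20 in normal cells. The tumor samples were spread over 0.75, and the fold change of -0.81 ± 0.20 (adjusted p = 0.0294, limma) was lost as a call without tumor replicate 1 or 2 or normal replicate 2 or 3 (adjusted p = 0.0734, 0.0837, 0.086 and 0.082). MRPS6 read 5.37, 5.55 and 5.84 in tumor cells, against 6.20, 6.33 and 6.47 in normal cells. It fell by 0.75 on the log2 scale (adjusted p = 0.0133, limma), lost without tumor replicate 2 or normal replicate 2 (adjusted p = 0.0515 for each).

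MRPS14, of the head of the subunit, read 5.02, 5.67 and 5.44 in tumor cells, against 5.78, 6.26 and 6.22 in normal cells. Normal 1 lay 0.11 above tumor 2. MRPS2, a conserved protein, read 7.60, 7.58 and 7.67 in tumor cells, against 8.03, 8.08 and 8.31 in normal cells, with 0.36 between the groups. The remaining called MRPS genes, with these 2, were MRPS14 (-0.71), MRPS36 (-0.57), MRPS22 (-0.52) and MRPS2 (-0.52), with adjusted p from 0.0212 to 0.0485 in limma. Each of these 4 calls was lost in 4 or 5 of the fits without 1 sample, with adjusted p up to 0.152. MRPS22 is known as a gene of inherited human mitochondrial disease. MRPS36 belongs, despite its name, to the 2-oxoglutarate dehydrogenase complex of the citric acid cycle and not to the ribosome.

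The MRPS genes that moved least included well-conserved proteins too. MRPS10 read 9.67, 9.61 and 9.64 in tumor cells, against 9.56, 9.65 and 9.79 in normal cells. The groups overlapped, and the fold change was -0.03 with a 95% interval of -0.28 to 0.23. MRPS21 changed by -0.05 (-0.35 to 0.26) and MRPS34 by -0.08 (-0.36 to 0.19), and neither was called. The differences between these genes and those that fell were not tested.

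**Figure D2:**
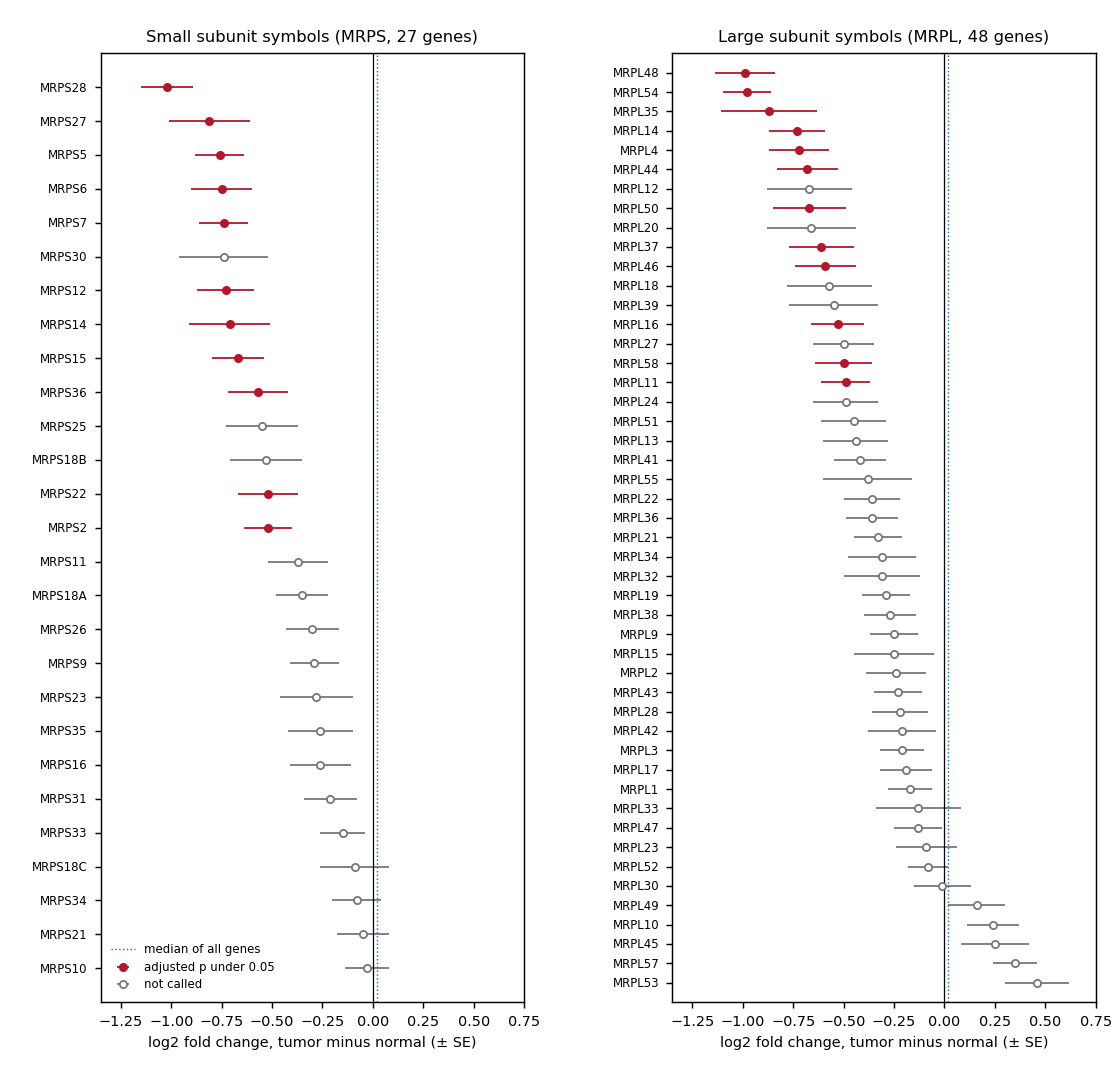
Log2 fold change, tumor minus normal, with its standard error for each gene with an MRPS symbol (left) and an MRPL symbol (right), filled red where the adjusted p was under 0.05 and open grey where it was not. The dotted line marks the median of all genes, 0.02. All 27 MRPS genes and 43 of 48 MRPL genes lie left of 0.

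Among the 48 genes with an MRPL symbol, 12 (25%) fell and 0 rose in limma, where 9.44% of all genes fell and 8.56% rose. At an unadjusted p under 0.05, 25 were lower and 2 higher, against 30.9% of all genes in either direction. The median of the 48 was -0.34, and 43 had a fold change below 0. In 26 of the 48 (54.2%) the tumor samples lay under the normal ones, against 18.1% of all genes. The opposite order held in 3 (6.25%), against 17.6% of all genes. MRPL54 and MRPL48, both classed as mitochondrial only by the field's uniform names, had the largest falls. MRPL48 read 5.44, 5.25 and 5.45 in tumor cells, against 6.11, 6.42 and 6.58 in normal cells. The groups were 0.66 apart, and the fold change was -0.99 ± 0.15 (adjusted p = 0.00417, limma). MRPL54 read 5.78, 5.65 and 5.60 in tumor cells, against 6.48, 6.77 and 6.71 in normal cells. Its fold change was -0.98 ± 0.12 (adjusted p = 0.00217, limma), and these were the 2 MRPL calls that held without any 1 sample.

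MRPL35, a conserved protein, read 5.31, 5.18 and 5.46 in tumor cells, against 5.62, 6.38 and 6.56 in normal cells. Normal 1 lay 0.76 under normal 2, close to the tumor samples, and the fold change was -0.87 ± 0.24 (adjusted p = 0.0392, limma). Without normal replicate 1 its adjusted p was 0.00345, and without any other 1 sample the call was lost, with adjusted p from 0.0719 to 0.134. MRPL14, a conserved protein of the face that meets the small subunit, read 7.81, 8.04 and 7.97 in tumor cells, against 8.41, 8.80 and 8.79 in normal cells. It fell by 0.73 (adjusted p = 0.0124, limma) and lost its call without normal replicate 2 (adjusted p = 0.0553). MRPL4, whose bacterial relative lines the exit tunnel of the new chain, read 6.26, 6.37 and 6.52 in tumor cells, against 6.84, 7.28 and 7.18 in normal cells. It fell by 0.72 (adjusted p = 0.0146, limma), with the call lost without tumor replicate 1 or 2 or normal replicate 2 (adjusted p = 0.0539, 0.0531 and 0.061).

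MRPL44, which has the fold of a ribonuclease and is known as a disease gene of human heart muscle, read 5.78, 5.91 and 5.59 in tumor cells, against 6.21, 6.54 and 6.57 in normal cells. It fell by 0.68 (adjusted p = 0.0166, limma), a call lost without tumor replicate 3 or normal replicate 2 (adjusted p = 0.0523 and 0.0696). MRPL50 read 4.89, 5.28 and 5.54 in tumor cells, against 5.75, 6.07 and 5.91 in normal cells, with tumor 1 far under the others. MRPL37 read 7.38, 7.36 and 7.47 in tumor cells, against 7.69, 8.11 and 8.24 in normal cells, with the wider spread in the normal group. The others called, with these 2, were MRPL50 (-0.67), MRPL37 (-0.61), MRPL46 (-0.59), MRPL16 (-0.53), MRPL58 (-0.50) and MRPL11 (-0.49), with adjusted p from 0.0271 to 0.0498. Each of these 6 calls was lost in 4 or 5 of the fits without 1 sample, with adjusted p up to 0.161. MRPL58 is a peptidyl-tRNA hydrolase that frees stalled chains, and MRPL11 lies at the base of the stalk that recruits translation factors. MRPL58 read 5.67, 5.91 and 6.13 in tumor cells, against 6.29, 6.49 and 6.42 in normal cells. It stood just under the threshold (adjusted p = 0.0498, limma).

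The estimated fold changes of the proteins of that stalk did not share 1 sign. MRPL12, its mobile factor-binding part, read 5.26, 5.38 and 5.73 in tumor cells, against 5.71, 6.34 and 6.33 in normal cells. Tumor 3 lay above normal 1, so the groups overlapped, and the fold change of -0.67 ± 0.21 was not called (adjusted p = 0.0602, limma). It passed without normal replicate 1 (adjusted p = 0.0141). MRPL10, which anchors MRPL12 to the ribosome, read 7.51, 7.28 and 7.22 in tumor cells, against 7.12, 7.21 and 6.96 in normal cells. Its fold change was 0.24 ± 0.13 (adjusted p = 0.262, limma), on the other side of 0 from MRPL11 and MRPL12.

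In all, 5 genes of the family had a fold change above 0, each with an MRPL symbol, and limma called 0 of them. MRPL53 read 6.01, 6.44 and 6.07 in tumor cells, against 5.64, 5.95 and 5.55 in normal cells. Its tumor samples all lay above its normal ones, by 0.06, with a fold change of 0.46 ± 0.16 (adjusted p = 0.0949, limma). MRPL57 read 7.19, 7.34 and 7.29 in tumor cells, against 7.0, 6.92 and 6.85 in normal cells. Its groups were 0.19 apart, with the smallest SE of the 5 (0.35 ± 0.11, adjusted p = 0.064, limma). MRPL45, which holds the ribosome near the inner membrane, read 8.12, 8.01 and 8.23 in tumor cells, against 8.23, 7.78 and 7.60 in normal cells. Normal 1 equalled the highest tumor sample, and the fold change of 0.25 ± 0.17 was not called (adjusted p = 0.391, limma). MRPL49, the remaining one, changed by 0.16 with groups that overlapped. MRPL30 changed by -0.01, with a 95% interval of -0.33 to 0.30. MRPL15 stayed under 3.55 in every sample, between 1.86 and 2.65, so its fold change of -0.25 carries little information.

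**Figure D3:**
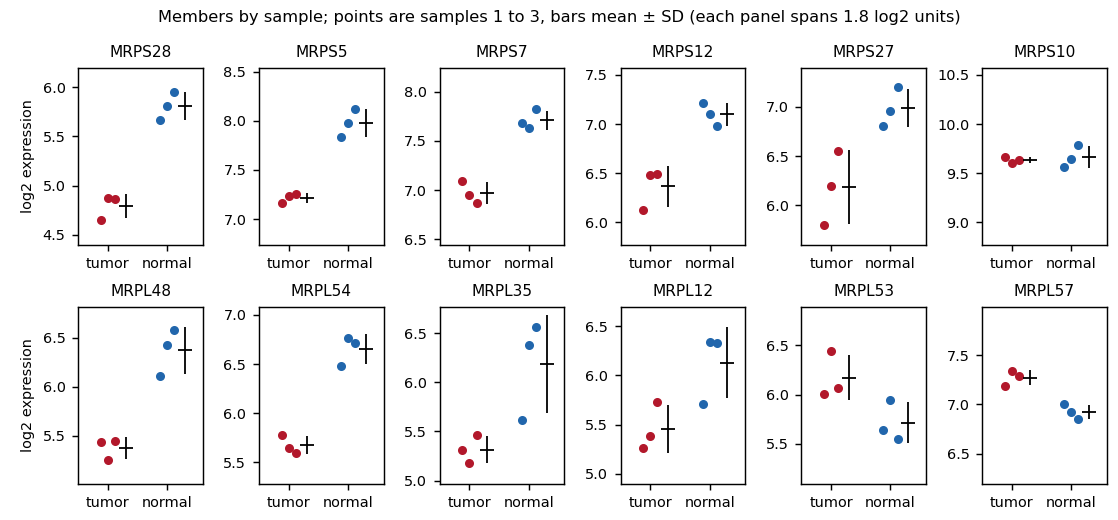
Log2 expression of 12 genes by sample, tumor in red left of normal in blue, with the mean and SD beside the points. Each panel spans the same range of 1.8 log2 units, so gaps can be compared between panels and levels cannot. MRPS28, MRPL48 and MRPL54 have wide gaps, MRPS10 and MRPL12 overlap, and MRPL53 and MRPL57 lie higher in tumor cells.

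Just beyond the threshold, 10 genes were lower in tumor cells with an adjusted p between 0.05 and 0.1 in limma. They were MRPL27, MRPS30, MRPL12, MRPL41, MRPS25, MRPL24, MRPL20, MRPS18B, MRPL36 and MRPL13, with fold changes from -0.36 to -0.74. MRPS30 had the largest of these differences: it read 7.03, 7.50 and 7.55 in tumor cells, against 7.71, 8.09 and 8.49 in normal cells. The groups did not overlap, but both were spread widely (-0.74 ± 0.22, adjusted p = 0.0577), and the gene passed without normal replicate 1 (adjusted p = 0.0241). Of the 52 members not called, 21 had groups set apart with tumor lower, 3 had groups set apart with tumor higher, and in 28 the groups overlapped. Over all genes, called or not, 18.1% were set apart with tumor lower and 17.6% with tumor higher. The share among uncalled genes alone was not taken.

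The symbols do not follow the structure in every case, since MRPS30 and MRPS18A sit in the large subunit of the mammalian mitochondrial ribosome and MRPS36 in neither. Placed by structure, 10 of 24 small subunit genes fell (41.7%, median -0.44) and 12 of 50 large subunit genes (24%, median -0.35), against 9.44% of all genes. The field's uniform names class proteins as shared with bacteria or as mitochondrial only, which need not mean that a bacterial relative is lacking. Of the 14 small subunit genes classed as shared 8 fell (57.1%, median -0.60). Of the 10 classed as mitochondrial only 2 fell (20%, median -0.29). In the large subunit, 5 of 30 genes classed as shared fell (16.7%, median -0.32) and 7 of 20 classed as mitochondrial only (35%, median -0.43). Each of these shares stands beside 9.44% of all genes, and the classes are small. The difference between these classes was not tested. By symbol, the mean of the MRPS genes exceeded that of the MRPL genes by 0.21, 0.19 and 0.24 in tumor samples and by 0.33, 0.26 and 0.37 in normal samples, without overlap.

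The spans of 21 of the 75 genes overlap another gene in the RefSeq table of assembly ARS-UCD2.0, among them 5 called genes, and whether probes told such genes apart is not given in the sources used here. In some pairs the fold changes had opposite signs. STX3, whose span overlaps that of MRPL16, rose by 1.68 (adjusted p = 0.00127, limma) while MRPL16 fell by 0.53. VAMP1, beside MRPL51 (-0.45), rose by 0.81 (adjusted p = 0.00496), and ZDHHC20, beside MRPL57 (0.35), fell by 0.96 (adjusted p = 0.00266). In other pairs the direction was shared. TMEM63B, which overlaps MRPL14, fell by 0.66 (adjusted p = 0.0151), and ACTL6A, which overlaps MRPL47 (-0.13), fell by 1.19 (adjusted p = 0.00234). Of the genes whose calls held without any 1 sample, MRPS28, MRPL48, MRPL54, MRPS5, MRPS12 and MRPS15 overlap no other gene in that table. The remaining one, MRPS7 (-0.74), overlaps MIF4GD, which changed by 0.44 (adjusted p = 0.0554, limma).

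The family also varied within each group. Normal 1 was the lowest normal sample in 61 of 75 genes, and normal 3 the highest in 53. Among tumor samples, tumor 1 was the lowest in 43 genes and tumor 3 the highest in 46. The SD of a gene was larger in normal than in tumor samples for 51 of 75 genes, with medians of 0.13 in tumor and 0.20 in normal samples, where all genes had 0.15 and 0.16. Mitotic genes, which mark dividing cells, moved in the same direction between the groups. Of 25 measured, 21 fell (84%, against 9.44% of all genes), with a median of -1.42. The mean of the 25 was 5.79, 6.63 and 6.45 in tumor samples and 7.34, 7.41 and 8.31 in normal samples. Tumor 1 had the lowest and normal 3 the highest mean of both lists. MKI67, a marker of cycling cells, differed by -1.20 (adjusted p = 0.0655, limma). The part of cell division in the result was not tested.

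Of the ribosome's subunits with other names, 5 were measured: CHCHD1, GADD45GIP1, AURKAIP1, PTCD3 and DAP3. CHCHD1 read 6.13, 6.36 and 6.27 in tumor cells, against 6.53, 6.88 and 6.89 in normal cells. GADD45GIP1 read 5.65, 5.76 and 5.57 in tumor cells, against 6.08, 6.08 and 6.33 in normal cells. Both fell, by 0.51 (adjusted p = 0.0395, limma) and by 0.50 (adjusted p = 0.0271), and both calls were lost in 5 of the fits without 1 sample (adjusted p up to 0.139). AURKAIP1 changed by -0.46 (adjusted p = 0.0516) and PTCD3 by -0.63 (adjusted p = 0.125). DAP3, a GTP-binding protein of the small subunit, read 7.68, 7.59 and 7.72 in tumor cells, against 7.40, 7.91 and 8.09 in normal cells. The groups overlapped (-0.14 ± 0.18, adjusted p = 0.681).

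Factors that work with the mitochondrial ribosome were lower in part. Of 18 translation factors 5 fell (27.8%, against 9.44% of all genes) and 0 rose in limma, with a median of -0.41. At an unadjusted p under 0.05, 11 were lower and 0 higher. MTFMT, which formylates the initiator tRNA, read 5.06, 5.16 and 4.99 in tumor cells, against 5.99, 6.13 and 6.23 in normal cells. It fell by 1.05 (adjusted p = 0.00117), and the initiation factor MTIF2 by 1.04 (adjusted p = 0.00622). LRPPRC, which stabilises mitochondrial messengers, fell by 0.81 (adjusted p = 0.0085), and the elongation factor GFM1 by 0.87 (adjusted p = 0.0145). The call of GFM1 was lost without tumor replicate 1 or 2 or normal replicate 2 (adjusted p = 0.0524, 0.0525 and 0.0599). TUFM, the elongation factor that brings in charged tRNA, changed by -0.54 (adjusted p = 0.06).

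Of 29 genes of ribosome assembly 6 fell (20.7%, against 9.44% of all genes) and 3 rose (10.3%, against 8.56% of all genes), with a median of -0.04. MPV17L2 read 5.18, 5.08 and 6.15 in tumor cells, against 6.68, 7.03 and 7.42 in normal cells, and fell by 1.57 (adjusted p = 0.0113, limma). TFB1M, which methylates the small ribosomal RNA, read 6.03, 5.96 and 5.97 in tumor cells, against 6.95, 7.01 and 7.18 in normal cells. It fell by 1.06 (adjusted p = 0.00098), with tumor samples within 0.07 of one another. SPG7, a subunit of the inner membrane protease that trims MRPL32, rose by 0.76 (adjusted p = 0.00356), and NGRN by 0.75 (adjusted p = 0.0141; lost without tumor replicate 1, adjusted p = 0.052). ERAL1, a chaperone of the small ribosomal RNA, changed by -0.04 (adjusted p = 0.918).

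Of 15 mitochondrial tRNA synthetases 2 fell (13.3%, against 9.44% of all genes). They were LARS2, by 1.09 (adjusted p = 0.00249, limma), and SARS2, by 0.65 (adjusted p = 0.0217). The call of SARS2 was lost without tumor replicate 1 or 2 or normal replicate 1 or 2 (adjusted p = 0.0576, 0.0579, 0.0534 and 0.0598). Of 16 genes of mitochondrial DNA expression 3 fell (18.8%, against 9.44% of all genes). They were HSD17B10, by 0.89 (adjusted p = 0.00476), TFB2M, by 0.77 (adjusted p = 0.0467), and PRORP, by 0.63 (adjusted p = 0.0344). The last 2 calls were each lost in 4 of the fits without 1 sample (adjusted p up to 0.147). Transcripts of mitochondrial DNA itself were not analysed here. TFAM, which packages mitochondrial DNA, changed by 0.05 (adjusted p = 0.862).

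Other mitochondrial lists leaned the same way, and the cytosolic ribosome did not. Of 68 nuclear-encoded subunits of oxidative phosphorylation 26 fell (38.2%, median -0.40), and of 25 genes of protein import 10 (40%, median -0.45). Of 13 genes of mitochondrial mass and shape 6 fell (46.2%, median -0.51). Of all genes, 9.44% fell. TOMM40, the import pore of the outer membrane, fell by 1.27 (adjusted p = 0.00819), and the inner membrane scaffold PHB1 by 0.98 (adjusted p = 0.00749). Limma called 0 genes higher in these 3 lists, where 1, 1 and 0 were higher at an unadjusted p under 0.05. Of 38 cytosolic ribosomal protein genes 1 fell (2.63%), FAU by 1.19 (adjusted p = 0.00778), with a median of 0.01 for the list. Their mean was 9.23, 9.26 and 9.33 in tumor samples and 9.23, 9.39 and 9.36 in normal samples, so the groups overlapped. The difference between the lists was not tested.

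**Figure D4:**
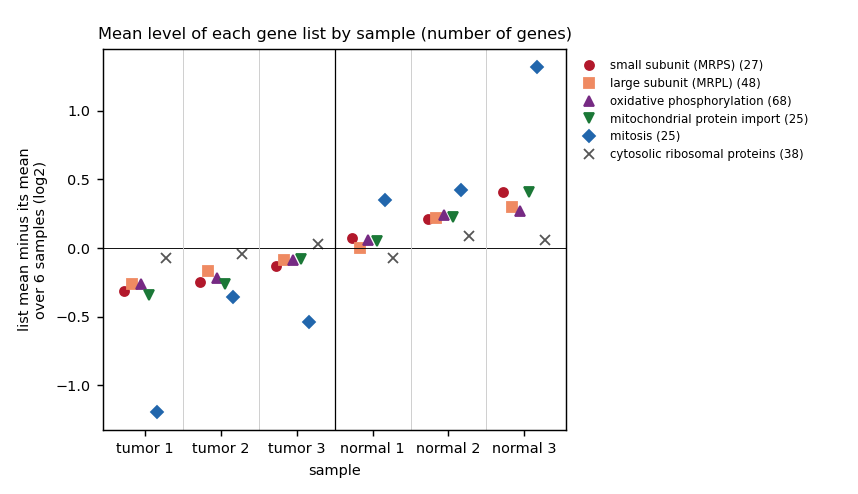
Mean log2 value of each gene list in each sample minus the list's mean over the 6 samples, tumor left of normal. Both subunits of the mitochondrial ribosome lie close to oxidative phosphorylation and protein import in every sample, mitotic genes range wider, and cytosolic ribosomal proteins stay near 0.

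**Figure D5:**
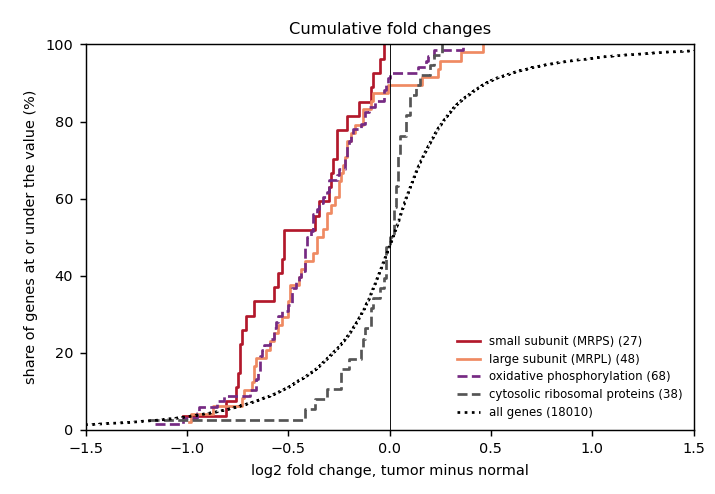
Cumulative share of genes by log2 fold change, tumor minus normal, for MRPS genes, MRPL genes, oxidative phosphorylation, cytosolic ribosomal proteins and all genes, each with its number of genes. The first 3 curves lie left of the dotted curve of all genes over most of their length, with medians of -0.52, -0.34 and -0.40 against 0.02.

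Regulators known to act on nuclear genes of mitochondria gave 1 fall and 1 rise among 14. Each was 7.14% of the list, where 9.44% of all genes fell and 8.56% rose. PPARGC1A, a coactivator of mitochondrial biogenesis, read 3.70, 3.95 and 4.49 in tumor cells, against 2.80, 2.47 and 2.62 in normal cells. All 3 normal values lay under 3.55, so its rise (adjusted p = 0.00375, limma) was given as a bound: tumor cells were at least 1.41-fold higher, set against that level. PPARGC1B, a related coactivator, read 4.41, 4.51 and 4.76 in tumor cells, against 5.15, 5.29 and 5.86 in normal cells. It fell by 0.87 (adjusted p = 0.0212), lost without tumor replicate 1 or 2 or normal replicate 2 (adjusted p = 0.0734, 0.0724 and 0.0519). NRF1, a transcription factor of respiratory genes, changed by -0.27 (adjusted p = 0.276), and MYC by 0.18 (adjusted p = 0.484).

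Of the genes outside the family, those whose 6 values ran most like its mean were CMC2, PRPF19, PSMB5, FAF2 and RCL1, with Pearson correlations of 0.998 to 0.999 over the 6 samples. The 6 points share the split between the groups, so these values are a description. CMC2 read 6.65, 6.84 and 7.01 in tumor cells, against 7.39, 7.78 and 8.12 in normal cells. PSMB5, a proteasome subunit, read 8.42, 8.52 and 8.71 in tumor cells, against 8.86, 9.21 and 9.39 in normal cells. In each of these 5 genes, as in the mean of the family, tumor 1 was the lowest and normal 3 the highest sample.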

How the data were processed

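The deposited table holds log2 expression values. The submitters' processing notes name RMA, whose version is not given in the sources used here. RMA scales arrays to one distribution of probe signals, so a change in total RNA would not show. Rows (24415) were named through the platform annotation: 18457 had 1 symbol, and all 75 members matched RefSeq by Entrez identifier. Each of 18010 genes kept its row with the highest mean.

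Tumor and normal samples, grouped by title, entered 1 two-sided linear model per gene without covariates (limma 3.58.1 under R 4.3.3), adjusted over all genes; the fit was also tested on simulated data. Errors beside fold changes are SE. Members and gene lists were chosen with earlier results of these data known, the lists from textbook knowledge; subunit and ancestry classes follow the field's uniform names. Genes named in full came from the largest changes of each subunit and list, the least changed members and some fixed by name. In some lists, such as oxidative phosphorylation and ribosome assembly, genes with large changes were left unnamed. Others were named after their values were seen. Alternatives covered scaling, filters, the variance model, rows per gene, a replicate block and each sample left out. Over all genes, same-numbered samples deviated from their group means with correlations of 0.05, -0.077 and 0.073. Over the members, mean deviations in order of replicate number were -0.08, -0.01 and 0.09 in tumor samples. In normal samples they were -0.17, 0.02 and 0.15. With 3 samples per group, these values cannot show whether the numbers pair samples.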

Additional observations from a re-analysis of the deposited data

How the results depend on the processing

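The number of mitochondrial ribosomal protein genes that fell stayed between 19 and 27 under other scalings, filters, variance models without array weights, rows per gene and the replicate block, and was 39 with array weights (24 MRPL genes, with 5054 genes called over all, against 3242), 33 at a threshold of 0.1 and 5 at 0.01. MRPL57 was called higher, 1 gene in each case, with quantile normalization, the dimmest genes left out, the olfactory receptor filter and array weights, with adjusted p from 0.0187 to 0.0487. With 1 sample left out, the number that fell ran from 7 to 32, with 5 to 14 MRPS and 2 to 18 MRPL genes, 1765 to 3226 genes called over all and 38 to 91 of the 265 other listed genes lower. The median fold change of the family ran from -0.44 to -0.27 over all alternatives. With the replicate block 25 fell, 22 of the 23 and 3 others; the call of MRPL58 was lost (adjusted p = 0.0539) and MRPL12 passed (0.0325). MRPL58 (0.0688) and MRPS22 (0.0541) lost their calls with quantile normalization, MRPL58 (0.053), MRPS14 (0.0515) and MRPS22 (0.0613) with median centring, and MRPL35 (0.0506), MRPL58 (0.0635), MRPS14 (0.0587) and MRPS22 (0.0618) with all rows adjusted together. For members and other named genes, 119 of the values under alternatives lost a call, 51 gained one and 1683 did neither.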
